A study of Mus musculus with 8 samples.

Results

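The genes described here are *Smad1*, *Smad2*, *Smad3*, *Smad5*, *Smad4* and *Rnf111*, which encode the receptor-regulated SMADs (all but *Smad9*), their shared partner SMAD4 and the ubiquitin ligase Arkadia. They were found by gene symbol in the table of read counts, and each symbol matched 1 row, giving 6 of the 37310 genes listed. The counts came from NMuMG, an established epithelial line from normal mouse mammary gland grown in medium with serum and insulin. There were 2 libraries of each of 4 groups, namely control cells left untreated, control cells given 10 ng/ml TGF-β1 for 2 h, *Lnc-Nr6a1* knockout (KO) cells left untreated, and KO cells given the same TGF-β1. The KO cells carried a CRISPR-Cas9 deletion at the promoter and first exon of the long non-coding RNA gene *Lnc-Nr6a1* and were derived from single sorted cells. Which clone or clones gave the libraries is not given in the sources used here, so the deletion and the properties of a clone cannot be told apart. The methods of the study call the replicates biological, but no source used here says whether they were separate cultures, and the p-values below then measure only the spread between these libraries, which may be technical.

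TGF-β binds a pair of type II and type I receptor kinases at the cell surface, and the type I receptor phosphorylates SMAD2 and SMAD3. Receptors for bone morphogenetic proteins (BMPs) act in the same way on SMAD1, SMAD5 and SMAD9. Phosphorylated receptor SMADs join SMAD4 and enter the nucleus, where they act on target genes with other DNA-binding proteins. Arkadia, the product of *Rnf111*, strengthens this signal by marking the inhibitory SMAD7 and the co-repressors SKI and SnoN (the product of *Skil*) for degradation. In NMuMG cells TGF-β is widely used to set off the epithelial to mesenchymal transition. RNA levels do not show phosphorylation, nuclear entry or protein turnover, the steps at which this pathway is mainly controlled.

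The libraries held 4297832 to 13574397 counts, with the fewest in KO replicate 1. Every TGF-β-treated library (9895118 to 13574397 counts) was deeper than every untreated one (4297832 to 7871090). Counts were scaled to library size, but any effect of depth left after this cannot be told apart from that of treatment. The targeted gene, listed as Gm13507, had 3 and 14 counts in control libraries left untreated and 25 and 35 in those given TGF-β. Libraries labelled KO had 11 and 7 counts of it untreated and 0 in both after TGF-β, which allows up to 0.244 and 0.238 CPM (read counts scaled to the size of the library). It therefore did not separate the untreated libraries by label, and the text speaks of libraries labelled KO throughout. Gm13507 lies within *Nr6a1* on the opposite strand and shares 0 exon bases with it. No source used here gives a strand setting for the counts, so its reads cannot be told apart from those of unspliced *Nr6a1* precursor RNA. Of 6 epithelial markers, *Krt8*, *Krt18* and *Cdh1* were abundant in every library, whereas *Krt7* had 4 to 14 counts, *Epcam* at most 2 and *Cldn3* 0. Immune markers summed to at most 5.44 CPM, endothelial markers to 0.846 and adipocyte markers to 0.22. A list of 6 mesenchymal or fibroblast markers, in which *Vim* gave most of the counts, summed to 2625 to 2935 CPM in the control libraries and to 3624 to 3898 CPM among libraries labelled KO. The summed epithelial markers were higher after TGF-β, at 7079 and 9989 against 4854 and 4977 CPM in control cells and at 6679 and 9101 against 5326 and 5586 CPM among libraries labelled KO. *Krt8* and *Krt18* gave most of this sum. *Cdh1* was at 193 and 266 CPM untreated and 237 and 242 CPM treated in control cells, which overlapped, and at 247 and 265 against 333 and 400 CPM among libraries labelled KO. The difference of the mesenchymal sum by label lay in *Vim*. *Cdh2*, the other abundant gene of that list, was at 101.6 and 100.8 CPM in untreated control libraries against 100.2 and 107.4 CPM in those labelled KO, and at 120 and 135 against 128 and 127 CPM after TGF-β.

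All 6 genes passed the filter on low counts, and the lowest count of any of them in any library was 201. *Smad9*, the remaining BMP receptor SMAD, had 0 or 1 count in each of the 8 libraries and was not tested. Per kilobase of annotated exon, *Smad3* was the most abundant of the 6 genes, with a mean of 37.8 CPM per kb over the 8 libraries, higher than in 85.3% of the 13028 genes tested. *Smad4* followed at 19.8 CPM per kb, *Smad2* at 17.9, *Rnf111* at 15.5, *Smad5* at 14.2 and *Smad1* at 7.60, the last lying at percentile 45.0. These levels rest on the combined exons of all annotated transcripts, and a cell that uses shorter ones would have a higher level per base. In mm9, besides *Smad3* and *Rnf111*, the genes lie at chr8:81862294-81923417 (*Smad1*, minus strand), chr18:76401234-76465385 (*Smad2*, plus), chr18:73798663-73863434 (*Smad4*, minus) and chr13:56804371-56843738 (*Smad5*, plus), and no annotated gene shares exon bases with any of the 6. In untreated control cells the order of levels was the same. There, *Smad3* (25.4 ± 1.06 CPM per kb, SD, n = 2) lay above both *Smad4* libraries, while *Smad4* (19.7 ± 2.10) and *Smad2* (18.0 ± 1.55) overlapped, as did *Rnf111* (13.6 ± 1.40) and *Smad5* (12.3 ± 1.18). *Smad1* (6.76 ± 0.02 CPM per kb) lay below all of the others in each of the 8 libraries.

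*Smad3*, the receptor SMAD of the TGF-β branch that binds DNA directly, was the one of the 6 genes that passed the call rule for TGF-β, and it was higher in treated cells. In control cells its level was 137 and 145 CPM untreated and 276 and 214 CPM after 2 h of TGF-β. Those labelled KO had 150 and 153 CPM untreated and 247 and 353 CPM after TGF-β. All 4 treated libraries lay above all 4 untreated ones, and the treated libraries were more spread out than the untreated ones. Over all genes the 2 control_TGFb2h libraries also lay farther apart than other replicates, with a median absolute difference of 0.33 in log2 CPM against 0.20 to 0.22 in the other groups, and replicate 1 was the higher of them for *Smad3*, *Smad7* and *Krt18*. The log2 fold change was 0.80 (SE 0.19) in control cells, with edgeR's Benjamini-Hochberg adjusted p = 0.0341, and 0.99 (SE 0.19) among libraries labelled KO, with adjusted p = 0.0171. A gene was called where this adjusted p was below 0.05 and the absolute log2 fold change above 0.5. By that rule *Smad3* was called higher in both, as 1 of 6 members, against 4.69% of the genes tested called higher in control cells and 4.25% among libraries labelled KO. Averaged over both genotypes the log2 fold change was 0.89 (SE 0.14, 1.86-fold), with edgeR's adjusted p = 0.0024, where 7.12% of the genes were called higher. The averaged call held in every alternative run, with adjusted p from 9.29e-12 to 0.0191. The call within 1 genotype did not hold in every alternative. In control cells it was lost with the replicate number as a block (edgeR's adjusted p = 0.0557) and in a fit of only the 4 libraries compared (0.0575). The call was also lost without control replicate 1 or 2, control_TGFb2h replicate 1, or KO replicate 1 or 2, with log2 fold changes from 0.59 to 0.84. Among libraries labelled KO it was lost without KO replicate 1 or 2 or KO_TGFb2h replicate 2, with adjusted p from 0.0979 to 0.136. The summed epithelial markers given above were also higher after TGF-β, through *Krt8* and *Krt18* and in control cells not through *Cdh1*, and their part in this rise was not tested. In such bulk libraries, more cells of a type and more RNA per cell cannot be told apart.

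The rise of *Smad3* was not shown to differ between genotypes. The response among libraries labelled KO exceeded that in control cells by 0.19 on the log2 scale, with a 95% interval from -0.42 to 0.80 (edgeR's adjusted p = 0.894). Untreated libraries labelled KO differed from untreated control libraries by 0.10 (interval -0.33 to 0.54), and the TGF-β-treated ones by 0.29 (interval -0.13 to 0.72). The size of the genotype effect under TGF-β moved with single libraries, from 0.03 to 0.54 when 1 was left out.

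**Figure D1:**
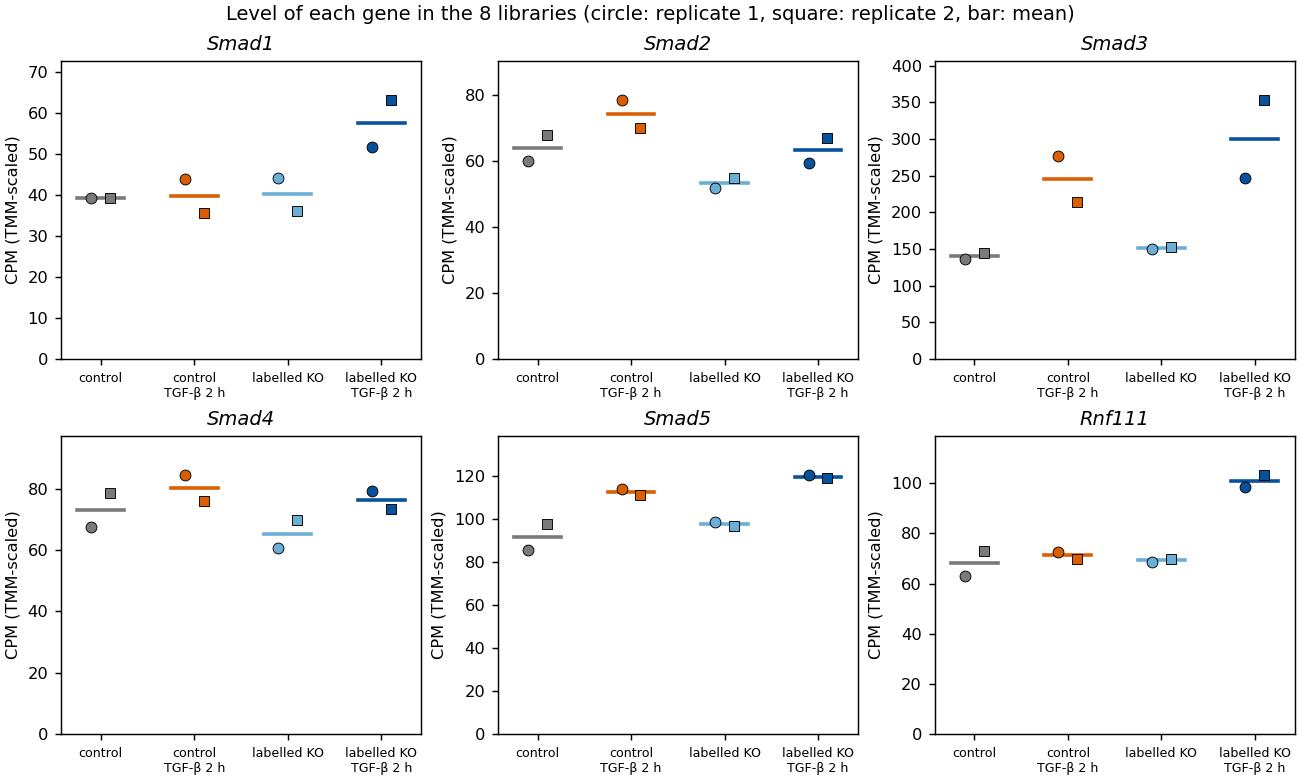
CPM of *Smad1*, *Smad2*, *Smad3*, *Smad4*, *Smad5* and *Rnf111* (y axes, each starting at 0) in the 4 groups, with a circle for replicate 1, a square for replicate 2 and a bar for the mean of 2 libraries. *Smad3* was higher in all 4 TGF-β-treated libraries, at 214 to 353 CPM against 137 to 153, and *Rnf111* stood apart in the 2 TGF-β-treated libraries labelled KO, at 98.5 and 103 CPM.

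*Smad3* lies on chromosome 9, at chr9:63494574-63605801 on the minus strand of mm9, the build whose GENCODE vM1 annotation matches the count table. The 250 bases before its start in RefSeq (GRCm38.p6, chr9:63757995-63758244, minus strand) are shown because it is the gene that was called. Capitals mark GGGCGG, the core of the GC box bound by Sp1 family proteins.
Smad3: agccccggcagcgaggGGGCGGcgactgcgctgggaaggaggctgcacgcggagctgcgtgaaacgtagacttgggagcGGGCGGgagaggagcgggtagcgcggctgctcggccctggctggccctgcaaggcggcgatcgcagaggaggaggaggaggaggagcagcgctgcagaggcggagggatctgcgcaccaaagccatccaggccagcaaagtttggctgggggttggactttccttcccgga
The motif begins 234 and 171 bases before the start. Of 32851 windows of this length before RefSeq gene starts, 32.7% hold GGGCGG on either strand. On both strands the window was also searched for CAGAC, a short SMAD-binding element found in 42.2% of such windows, for the palindrome GTCTAGAC (0.167%), which can overlap a CAGAC, for the GC-rich SMAD site GGCGCC (9.59%) and for the AP-1 site TGANTCA (6.75%). None of these 4 was in the letters shown.

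*Smad2*, the other receptor SMAD of the TGF-β branch, was not called in any comparison. In control cells it was at 60.0 and 67.8 CPM untreated and 78.5 and 70.0 CPM after TGF-β. Libraries labelled KO were at 52.0 and 54.8 CPM untreated and 59.5 and 66.9 CPM after TGF-β. The treated libraries lay above the untreated ones within each genotype, and the libraries labelled KO lay below the control libraries both untreated and treated. The log2 change after TGF-β was 0.22 (interval -0.12 to 0.55) in control cells and 0.24 (interval -0.10 to 0.58) among libraries labelled KO. Averaged over treatments, the libraries labelled KO had 0.25 less *Smad2* on the log2 scale (log2 difference -0.25, interval -0.48 to -0.01, edgeR's adjusted p = 0.141).

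*Smad4* encodes the partner that all receptor SMADs share. Its level was 67.6 and 78.6 CPM in untreated control libraries and 84.4 and 75.9 CPM after TGF-β. Those labelled KO had 60.5 and 69.8 CPM untreated and 79.1 and 73.3 CPM after TGF-β. Groups overlapped in control cells and were separate among libraries labelled KO. The log2 change after TGF-β was 0.13 (interval -0.21 to 0.48) in control cells and 0.22 (interval -0.12 to 0.57) among libraries labelled KO. From lowest to highest library *Smad4* spanned 1.39-fold, the narrowest range of the 6 genes, against 2.58-fold for *Smad3*.

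*Smad1* and *Smad5* encode receptor SMADs of the BMP branch. *Smad5* was at 85.3 and 97.7 CPM in untreated control libraries and at 113.8 and 110.9 CPM after TGF-β. Libraries labelled KO were at 98.4 and 96.8 CPM untreated and at 120.3 and 118.7 CPM after TGF-β. All 4 treated libraries lay above all 4 untreated ones. The averaged log2 change was 0.29 (SE 0.10, edgeR's adjusted p = 0.0602), and the responses of the 2 genotypes differed by -0.005 (interval -0.43 to 0.42). In control cells *Smad1* was at 39.4 and 39.3 CPM untreated and at 43.9 and 35.7 CPM after TGF-β, and the groups overlapped. Libraries labelled KO were at 44.2 and 36.1 CPM untreated and at 51.8 and 63.3 CPM after TGF-β, and the groups were separate. The log2 change of *Smad1* after TGF-β was 0.02 (interval -0.39 to 0.43) in control cells and 0.52 (interval 0.11 to 0.94) among libraries labelled KO, where edgeR's adjusted p was 0.133. The difference between these responses was 0.50 (interval -0.08 to 1.09, edgeR's adjusted p = 0.614).

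*Rnf111* stood apart in 1 group. Its level was 63.1 and 73.0 CPM in untreated control libraries, 72.7 and 70.0 CPM in control libraries after TGF-β, and 68.7 and 70.0 CPM in untreated libraries labelled KO. In the TGF-β-treated libraries labelled KO it was 98.5 and 103.3 CPM, above all 6 other libraries. This order, which was noticed after the values were seen, was also found for *Smad1* and *Smad5*, so for 3 of the 6 genes, against 9.26% of the genes tested. The log2 change of *Rnf111* after TGF-β among libraries labelled KO was 0.54 (SE 0.14), but edgeR's adjusted p of 0.0510 missed the threshold. In control cells it was 0.07 (interval -0.25 to 0.38). Under TGF-β the libraries labelled KO exceeded the control libraries by 0.4996 on the log2 scale (SE 0.14), with edgeR's adjusted p = 0.0401, just under the fold change that a call required. The difference between the TGF-β responses was 0.47 (interval 0.03 to 0.92), with an unadjusted p of 0.0394 and edgeR's adjusted p of 0.540. *Rnf111* was called both after TGF-β among libraries labelled KO and between genotypes under TGF-β with DESeq2, with the size factors of DESeq2 in edgeR and without a filter on low counts, and in neither with limma-voom. With 1 library left out it was called in the first without either TGF-β-treated control library (adjusted p = 0.0305 and 0.0311) and not without any of the other 6 (0.0829 to 0.248). In the second it was called without control_TGFb2h replicate 1 (adjusted p = 0.0485), where *Smad1* was called too (0.70, adjusted p = 0.0413), and not without any of the other 7 (0.0663 to 0.189). In a fit of only the 4 libraries compared it was called in neither, with an adjusted p of 0.132 in the second. Of the mesenchymal markers given above *Vim* was also higher among libraries labelled KO, whereas *Cdh2* was at a like level. The epithelial marker *Cdh1* had the same order as *Rnf111*, with 333 and 400 CPM in the TGF-β-treated libraries labelled KO against 193 to 266 CPM in the 6 others. *Krt8* and *Krt18* did not have this order. In the TGF-β-treated libraries *Krt8* was at 3335 and 4341 CPM where labelled KO against 3959 and 2987 CPM in control cells. *Krt18* was at 3011 and 4359 against 5791 and 3849 CPM. The part of these markers in the values of *Rnf111* was not tested.

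*Rnf111* lies at chr9:70273236-70351532 on the minus strand of mm9, on the same chromosome as *Smad3*. RefSeq gives it a pair of starts, and the 250 bases before the outer one (GRCm38.p6, chr9:70503776-70504025, minus strand) are shown beside those of *Smad3* above because *Rnf111* was the nearest to a call of the other genes. Capitals mark GGGCGG, beginning 95 bases before the start, and the short SMAD-binding element CAGAC, beginning 70 bases before it.
Rnf111: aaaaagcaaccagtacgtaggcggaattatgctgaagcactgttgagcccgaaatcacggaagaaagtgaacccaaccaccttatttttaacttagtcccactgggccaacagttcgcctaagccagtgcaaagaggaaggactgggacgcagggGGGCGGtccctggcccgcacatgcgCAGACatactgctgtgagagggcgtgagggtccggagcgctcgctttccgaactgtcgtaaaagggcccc
A match of this length is a description of the letters, and CAGAC is in 42.2% of windows. RefSeq windows were matched for 4 of the 6 genes.

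**Figure D2:**
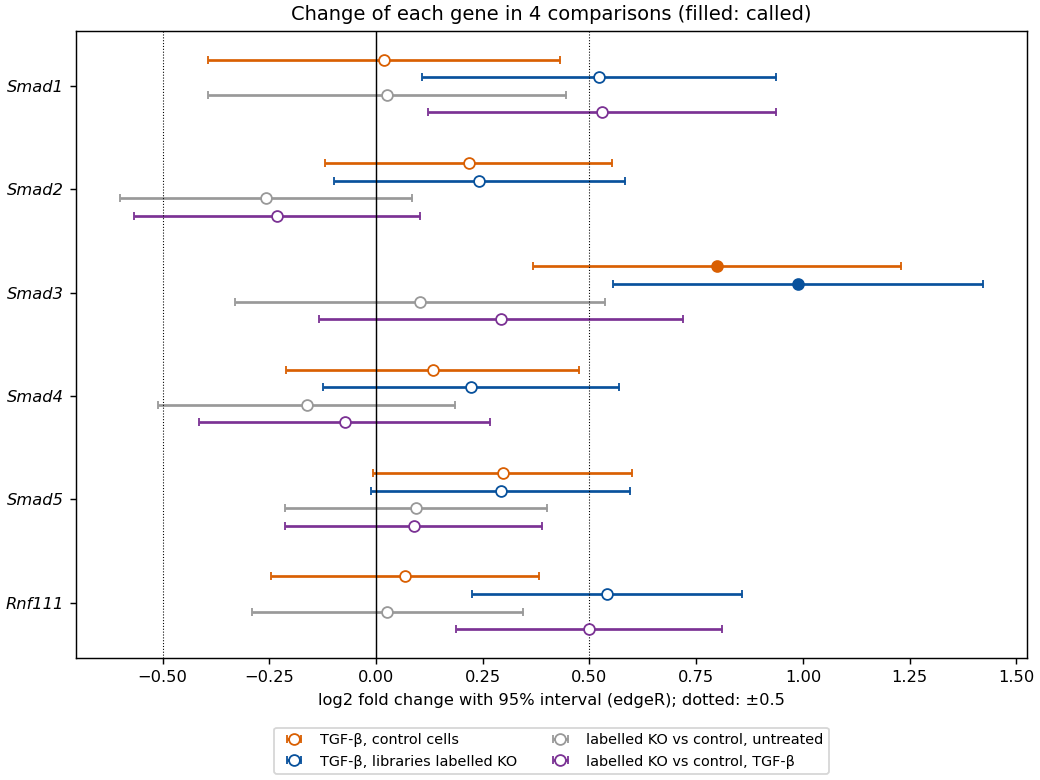
Log2 fold change with its 95% interval (x axis) of the 6 genes (y axis) in 4 comparisons, from edgeR's fit to all 8 libraries, with filled points for calls and dotted lines at the fold change that a call required. The filled points are *Smad3* after TGF-β in control cells (0.80) and among libraries labelled KO (0.99), and *Rnf111* has 2 open points near the dotted line, at 0.54 and 0.50.

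Counted together, the 6 genes all had a log2 change above 0 after TGF-β in both genotypes, against 51.4% and 49.9% of the genes tested. In control cells *Smad1* and *Rnf111* changed by only 0.02 and 0.07, which fell as low as -0.15 and -0.035 with 1 library left out. The genes also varied together over the 8 libraries (r = 0.904 for *Smad3* and *Smad5*), so they do not count as independent. The median log2 change of the 6 genes was 0.18 in control cells and 0.41 among libraries labelled KO, and over all genes it was 0.02 and 0.00. The treated libraries lay above the untreated ones without overlap for 3 of 6 genes in control cells and for 6 of 6 among libraries labelled KO, against 27.5% and 28.4% of the genes tested. Between genotypes 0 of the 6 genes were called by edgeR, either untreated, where 1.83% of the genes were called, or under TGF-β, where 15% were. At an unadjusted p below 0.05, edgeR gave 0 of the 6 untreated, against 14.9% of the genes, and *Smad1* and *Rnf111* under TGF-β, against 31.4%. With DESeq2 the counts of members called were 0 untreated, against 3.29% of the genes, and 1 under TGF-β, against 16.7%. No difference between TGF-β responses was called for any of the 13028 genes by edgeR, while 1134 (8.7%) had an unadjusted p below 0.05, *Rnf111* among them, and DESeq2 called 25. The comparisons of 1 group with 2 others share its libraries and are not independent of each other.

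*Smad3* made up 31.6 and 30.3% of the summed CPM per kb of the 5 SMAD genes in untreated control libraries and 42.4 and 38.7% after TGF-β. Among libraries labelled KO its share was 34.3 and 34.0% untreated and 41.4 and 49.3% after TGF-β. Its ratio to *Smad2*, per length, was 1.42 ± 0.06 (SD, n = 2) in untreated and 2.11 ± 0.21 in TGF-β-treated control libraries. Among libraries labelled KO the ratio was 1.82 ± 0.05 untreated and 3.02 ± 0.51 after TGF-β. Without division by length the ratio was 2.21 and 3.29 in control libraries and 2.84 and 4.72 in those labelled KO, untreated and treated. Ranges of the ratio per length did not overlap between any of the 4 groups. *Smad4* RNA amounted to 0.315 of the summed receptor SMADs in untreated control libraries and to 0.249 after TGF-β, and to 0.281 and 0.213 among libraries labelled KO. The RNA of *Smad2* plus *Smad3* exceeded that of *Smad1* plus *Smad5* by 2.27-fold in untreated control libraries and by 2.96-fold after TGF-β, and by 2.12-fold and 2.76-fold among libraries labelled KO. Without division by length the *Smad4* ratio was 0.218 and 0.170 in control libraries and 0.190 and 0.143 in those labelled KO, and the ratio of the branches 1.57 and 2.09 and 1.49 and 2.05, each untreated and treated. These ratios were computed from the values above and were not tested.

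**Figure D3:**
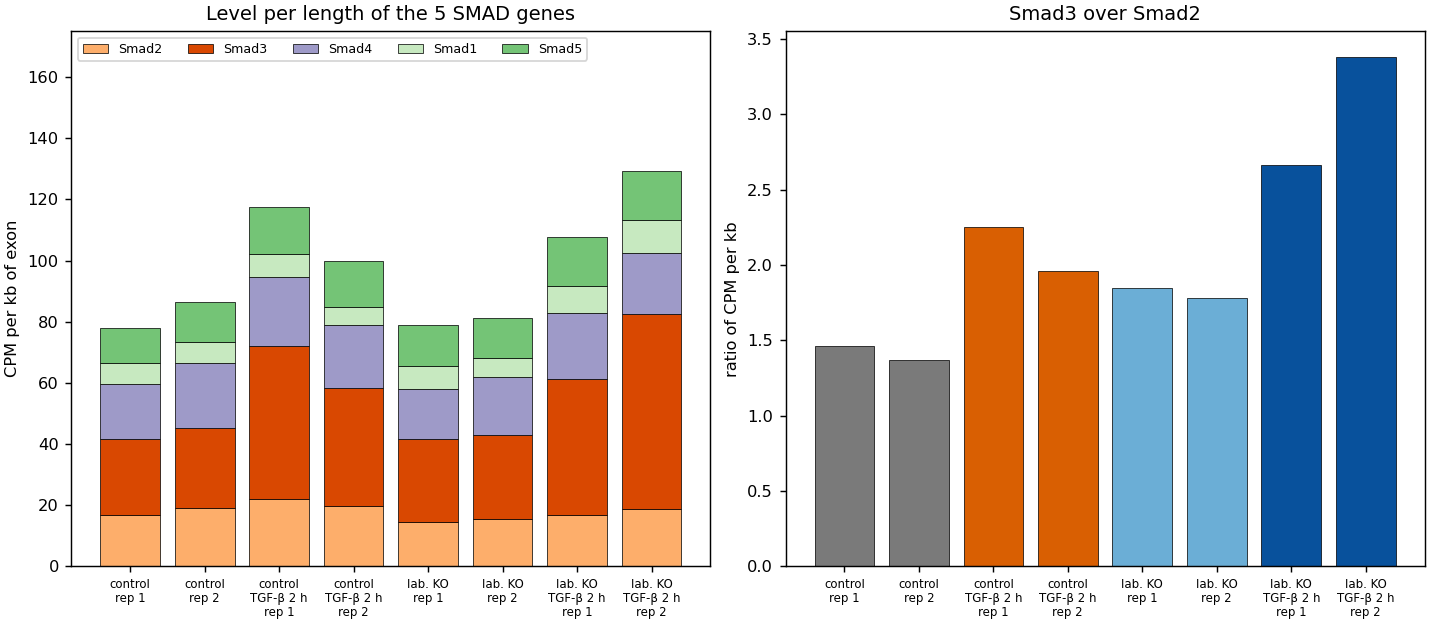
Left, the summed level of the 5 SMAD genes in each library, stacked by gene (y axis, CPM per kb of exon). Right, the ratio of *Smad3* to *Smad2* per length in each library, which lies between 1.37 and 1.85 in the untreated libraries and between 1.96 and 3.38 in the TGF-β-treated ones.

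The RNAs of the proteins that Arkadia marks for degradation rose several-fold. *Skil* was at 100.2 and 137.3 CPM in untreated control libraries and at 527.9 and 486.9 CPM after TGF-β, and at 82.6 and 102.7 against 453.1 and 489.9 CPM among libraries labelled KO. *Ski* was at 69.0 and 60.0 against 182.4 and 160.9 CPM in control cells, and at 84.3 and 83.2 against 248.4 and 270.3 CPM among libraries labelled KO. The inhibitory *Smad7* was at 27.6 and 33.5 against 129.7 and 66.9 CPM in control cells, and at 38.7 and 31.3 against 132.0 and 206.6 CPM among libraries labelled KO. For each of these 3 genes all treated libraries lay above all untreated ones. Within 1 genotype, groups separate in this direction were found for 27.5% of the genes tested in control cells and 28.4% among libraries labelled KO. In control cells the log2 changes were 2.09 (SE 0.18), 1.41 (SE 0.15) and 1.69 (SE 0.32) for *Skil*, *Ski* and *Smad7*, with edgeR's adjusted p of 0.000507, 0.000933 and 0.0151. Among libraries labelled KO they were 2.34 (SE 0.19), 1.63 (SE 0.15) and 2.28 (SE 0.33), with edgeR's adjusted p of 0.000313, 0.000475 and 0.00449. *Ski* and *Skil* kept these calls under every alternative run, and *Smad7* lost them without either untreated library of the genotype, with adjusted p up to 0.149. *Smad6*, the inhibitory SMAD known mainly from BMP signalling, was not called, with log2 changes of 0.23 (interval -0.61 to 1.07) and 0.63 (interval -0.21 to 1.48). Its 2 treated control libraries were at 29.1 and 11.6 CPM and lay on either side of the untreated ones. *Tgif1* and *Tgif2*, the co-repressors that complete this list of 6 genes, were not called in either genotype. The 3 calls higher and 0 lower stand against 4.69% and 4.47% of all genes in control cells, and 4.25% and 2.57% among libraries labelled KO. In the average of both genotypes 4 of the 6 were called higher and 0 lower, against 7.12% and 7.65%. Under TGF-β *Ski* was higher among libraries labelled KO by 0.59 (SE 0.14, edgeR's adjusted p = 0.0235), a call that was lost in a fit of only the 4 libraries compared (adjusted p = 0.102) and without control_TGFb2h replicate 2 or any 1 library labelled KO, with adjusted p up to 0.130.

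Among receptors and co-receptors, 9 of the 13 genes listed were tested, and in each genotype TGF-β gave 3 calls higher and 0 lower. The shares over all genes were 4.69% higher and 4.47% lower in control cells, and 4.25% and 2.57% among libraries labelled KO. In the average of both genotypes 3 receptors were called higher and 1 lower, against 7.12% and 7.65% of all genes. The last was *Acvr1b*, a type I receptor for activins (-0.71, SE 0.16, edgeR's adjusted p = 0.0139), which was named after its value was seen. This call was lost without control replicate 1 (adjusted p = 0.0652) or KO replicate 2 (adjusted p = 0.0685). *Tgfbr1*, the type I receptor of TGF-β that phosphorylates SMAD2 and SMAD3, was at 100.8 and 140.0 CPM in untreated and at 526.6 and 752.7 CPM in treated control libraries. Its log2 change was 2.41 (SE 0.25) in control cells and 2.55 (SE 0.25) among libraries labelled KO, with edgeR's adjusted p of 0.000952 and 0.00079. *Acvr1*, a type I receptor of the BMP branch, changed by 2.38 (SE 0.20) and 2.30 (SE 0.20), with edgeR's adjusted p of 0.000507 and 0.000445. *Bmpr2*, a type II receptor for BMPs, rose by 1.11 (SE 0.17) and 1.27 (SE 0.17), with edgeR's adjusted p of 0.00505 and 0.00314. *Tgfbr1* and *Acvr1* kept their calls under every alternative run, while *Bmpr2* missed the threshold without control replicate 1 in control cells (adjusted p = 0.0799) and without KO replicate 1 among libraries labelled KO (adjusted p = 0.0541). The list's median log2 change was 0.42 in control cells and 0.28 among libraries labelled KO, against 0.02 and 0.00 over all genes. *Tgfbr3*, *Acvr1c*, *Acvrl1* and *Bmpr1b* had at most 5 counts in any library and were not tested.

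The list of adaptors and of enzymes that add or remove ubiquitin or phosphate on SMADs had 19 of 21 genes tested, and after TGF-β each genotype had 4 of them called higher and 0 called lower, against the same shares over all genes (4.69% and 4.47%, 4.25% and 2.57%). *Pmepa1*, a membrane protein that restrains SMAD2 and SMAD3, changed by 1.35 (SE 0.17) in control cells and 1.57 (SE 0.17) among libraries labelled KO, with edgeR's adjusted p of 0.00251 and 0.00123. *Smurf2*, a ubiquitin ligase that acts on SMADs and on the receptor, rose by 0.96 (SE 0.17) and 0.84 (SE 0.17), and *Trim33*, a ligase of SMAD4, by 0.84 (SE 0.17) and 1.03 (SE 0.18). The fourth gene called was *Ppm1a*, a phosphatase of SMAD2 and SMAD3, in control cells (0.56, SE 0.14) and *Smurf1* among libraries labelled KO (1.05, SE 0.24). No difference between genotypes in these responses was called. *Pmepa1* kept its call in all alternatives run, whereas *Ppm1a* lost its call in 9 of 16, with adjusted p up to 0.246. In control cells *Smurf2* lost its call in 1 and *Trim33* in 3 of 16 alternatives, and among libraries labelled KO *Trim33* lost it in 2 and *Smurf2* and *Smurf1* in 4 each. Between genotypes, *Dab2*, an adaptor that links receptors to SMAD2 and SMAD3, was at 6.39 to 10.8 CPM in the 4 control libraries and at 0.244 to 0.664 CPM in the 4 labelled KO, where it had 2 to 8 counts. The fitted log2 differences were -3.55 (SE 0.50) untreated and -4.47 (SE 0.46) under TGF-β, with edgeR's adjusted p of 0.0103 and 0.00091. Leaving out 1 untreated library ended the first of these calls, with adjusted p up to 0.104. The second kept its call, but its size moved to -3.94 without KO_TGFb2h replicate 1, which had 3 counts, and to -5.27 without KO_TGFb2h replicate 2, which had 8. *Hgs*, an endosomal adaptor, was higher among libraries labelled KO under TGF-β, by 1.05 (SE 0.16, edgeR's adjusted p = 0.00471).

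Of the nuclear partners 9 of 11 were tested. *Runx1* and *Runx2*, DNA-binding partners of receptor SMADs, rose in control cells by 1.99 (SE 0.31) and 0.87 (SE 0.17) and among libraries labelled KO by 2.38 (SE 0.32) and 1.28 (SE 0.17). *Smarca4*, a chromatin remodeller, was called lower in control cells at -0.53 (SE 0.13), and *Foxo1*, a forkhead partner, was called higher among libraries labelled KO at 1.07 (SE 0.24). Each of these calls was lost in at least 1 alternative. The adjusted p then reached 0.0855 and 0.163 for *Runx1* and *Runx2* in control cells, 0.0550 and 0.0570 among libraries labelled KO, 0.199 for *Smarca4* and 0.222 for *Foxo1*. The median of the list was 0.00 and 0.09. Of 17 SMAD target genes, 16 were tested. In control cells 9 were called higher and 2, *Id1* and *Id3*, lower, against 4.69% and 4.47% of all genes. Libraries labelled KO gave 9 calls higher and 0 lower, against 4.25% and 2.57%. In the average of both genotypes 10 were called higher and 0 lower, against 7.12% and 7.65%. *Snai1*, a repressor of *Cdh1*, rose by 4.23 (SE 0.32) and 3.99 (SE 0.30), and *Ctgf*, a matricellular protein gene, by 3.03 (SE 0.29) and 3.77 (SE 0.30). The list's median was 1.19 and 1.38. *Id1* and *Id3*, inhibitors of basic helix-loop-helix factors and targets of the BMP branch, were named after their values were seen.

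*Id1* was at 119 and 102 CPM untreated and 76.1 and 65.1 CPM treated in control cells, and at 64.3 and 74.2 against 95.9 and 76.1 CPM among libraries labelled KO. *Id3* was at 54.1 and 34.3 against 26.0 and 15.1 CPM in control cells, and at 26.4 and 26.3 against 34.0 and 26.5 CPM among libraries labelled KO. For both genes the treated libraries lay below the untreated ones in control cells and above them among libraries labelled KO. Groups were separate in these directions for 26.3% and 28.4% of the genes tested. Among libraries labelled KO *Id3* was barely separate, with the closest libraries at 26.42 untreated and 26.52 CPM treated. In control cells the log2 changes were -0.65 (SE 0.17) and -1.10 (SE 0.29), with edgeR's adjusted p of 0.0480 for each. Each of these 2 calls was lost in 7 of 16 alternatives, with adjusted p up to 0.292 for *Id1* and 0.328 for *Id3*, among them the fit of only the 4 libraries compared and the fits without control replicate 1 or 2, control_TGFb2h replicate 2, or KO replicate 1 or 2. Among libraries labelled KO the log2 changes were 0.31 and 0.20, with edgeR's adjusted p of 0.337 and 0.744, and the responses differed by 0.96 (SE 0.25) and 1.30 (SE 0.42), with adjusted p of 0.444 and 0.495.

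**Figure D4:**
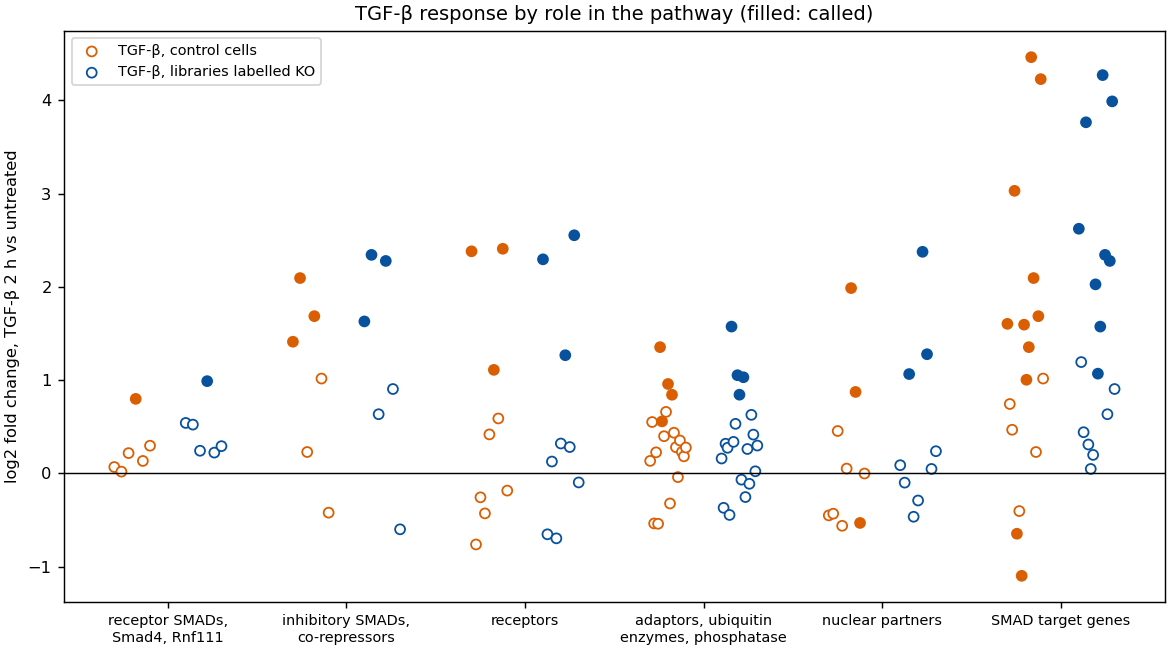
Log2 fold change after 2 h of TGF-β (y axis) of each tested gene, grouped by role in the pathway (x axis), in control cells and among libraries labelled KO, with filled points for calls. The 6 genes at the left have 1 filled point in each genotype, up to 0.99, while receptors reach 2.55 and target genes 4.46.

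Over all roles, 54 of 62 listed genes were tested, and TGF-β treatment of control cells gave 18 calls higher and 3 lower, against 4.69% and 4.47% of all genes. Among libraries labelled KO it gave 19 higher and 0 lower, against 4.25% and 2.57%. Between genotypes 0 were called higher and 2 lower untreated (*Dab2* and *Id2*), against 1.03% and 0.798% of all genes, and 7 higher and 2 lower under TGF-β, against 8.47% and 6.57%. *Id2*, a further inhibitor of basic helix-loop-helix factors, was lower among libraries labelled KO by 1.28 on the log2 scale untreated (log2 difference -1.28, SE 0.21, edgeR's adjusted p = 0.0195), a call that was lost without any 1 untreated library, with adjusted p up to 0.210. The other 4 called higher under TGF-β beside *Ski*, *Hgs* and *Pmepa1* were *Smarca4*, *Runx2*, *Snai1* and *Bhlhe40*, between 0.59 and 1.06. Of the 9 called under TGF-β, *Dab2* and *Hgs* kept the call in every alternative run.

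Among 9498 genes with a mean of at least 10 CPM, those whose log2 CPM followed each member most closely over the 8 libraries were named by Pearson's r. *Smad3* was followed most closely by *Rc3h1* (r = 0.994) and *Tmem2* (r = 0.992), *Smad2* by *Zfp511* (0.984) and *Prkci* (0.975), and *Smad4* by *Lcor* (0.968) and *Ccdc90b* (0.953). *Smad5* was followed by *N4bp1* (0.988) and *Ccl9* (0.979), *Smad1* by *Eef2* (0.966) and *Galnt10* (0.962), and *Rnf111* by *Rreb1* (0.972) and *Notch2* (0.966). For *Rnf111* the names depended on the measure, as by Spearman's correlation 0 of its 2 named genes stayed among the most alike, ties included. The points share 4 groups and their library sizes, and the values describe likeness over these 8 libraries alone. Among the members themselves, *Rnf111* and *Smad1* had r = 0.873, and *Smad2* and *Smad4* had r = 0.826.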

How the data were processed

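RNA-seq of 8 NMuMG libraries in 4 groups was analysed, grouped by the sample labels. The table deposited by the authors holds raw counts, as whole numbers with no scaling. According to the methods of the study, reads were aligned with subjunc to mm10 and mm9, duplicates were removed and counts were tested with DESeq2, whereas the submitters' processing notes name HISAT2, limma and mm10. Library kit and read layout also differ between the 2 sources. The counter and its strand setting are not given in the sources used here. The 37310 identifiers and their order are those of GENCODE vM1 (mm9), which gave symbols, positions and exon lengths. Removal of duplicates would lower the counts of abundant genes most.

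TMM-scaled CPM and quasi-likelihood tests came from edgeR 4.0.16 (R 4.3.3), in 1 fit of all 8 libraries to the 13028 genes kept by filterByExpr. SE was the absolute log2 fold change over the square root of F, and intervals used Student's t with 4 residual and 5.50 prior degrees of freedom. Calls required an adjusted p (Benjamini-Hochberg) under 0.05 with an absolute log2 fold change over 0.5, differences of responses the adjusted p alone. Code was tested on simulated data. Alternatives were DESeq2 1.42.0, limma-voom 3.58.1, the size factors of DESeq2, no filter, a mean of at least 10 counts, a replicate block, only the 4 libraries compared, no fold threshold and each library left out, and for ratios and likeness CPM without division by length, Spearman's correlation and no minimum CPM. The members and lists were chosen with earlier results of these data known. Named genes were the members, the targeted gene, *Smad6*, *Smad7*, *Smad9*, *Ski*, *Skil*, the called genes of each list (at most 4 of smallest p per comparison) and the 2 genes most correlated with each member. Where a symbol was on 2 identifiers (*Dab2*, *Runx2*), the longer gene was used. Limits from a count of 0 assumed 3 counts and cover counting error only. Sequences are from RefSeq (GRCm38.p6).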

Additional observations from a re-analysis of the deposited data

How the results depend on the processing

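*Smad3* averaged over genotypes was called under every alternative run. After TGF-β in control cells, where 1 member (*Smad3*) was called, the count was 0 with the replicate block (log2 fold change 0.80, edgeR's adjusted p = 0.0557) and 0 in a fit of only the 4 libraries compared (0.79, adjusted p = 0.0575). Leaving out 1 library gave 0 to 1 calls and a *Smad3* change of 0.59 to 0.97, with the call lost without control replicate 1 or 2, control_TGFb2h replicate 1, or KO replicate 1 or 2. In the libraries labelled KO, 2 members (*Rnf111* added) rather than 1 were called with DESeq2, with DESeq2's size factors in edgeR and without a filter. Leaving out 1 library gave 0 to 2 calls and a *Smad3* change of 0.74 to 1.25, with the call lost without KO replicate 1 or 2 or KO_TGFb2h replicate 2. Between genotypes under TGF-β, with 0 members called, 1 (*Rnf111*) was called with DESeq2, with its size factors, without a filter and without the fold threshold, and 0 to 2 when 1 library was left out, the 2 being *Smad1* and *Rnf111* without control_TGFb2h replicate 1.

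Some signs turned, none of them of a call. Without a filter, the untreated genotype differences of *Smad1* and *Rnf111* were -0.010 and -0.0095, and the *Smad5* difference of responses was 0.064, against 0.0074 with DESeq2 and 0.0072 with its size factors. With 1 library left out, the change after TGF-β in control cells ranged from -0.15 to 0.16 for *Smad1*, from -0.035 to 0.18 for *Rnf111* and from -0.60 to 0.74 for *Smad6*. The untreated genotype difference ranged from -0.12 to 0.17 for *Smad1*, from -0.0062 to 0.19 for *Smad5* and from -0.080 to 0.13 for *Rnf111*, and that of *Smad4* under TGF-β from -0.14 to 0.024. The difference of responses ranged from -0.060 to 0.15 for *Smad2*, from -0.054 to 0.46 for *Smad3*, from -0.019 to 0.21 for *Smad4* and from -0.10 to 0.10 for *Smad5*. The cause was not tested.

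For the same replicate number, Pearson's r of deviations from the group means ran from -0.47 to 0.30 over 6 pairs of groups. With 2 libraries a group this cannot decide whether samples were paired or shared a batch, and the main fit used no block. The block changed no other count of members called. With KO_TGFb2h numbers crossed, a pairing chosen after seeing the data, 1 member rather than 0 was called between genotypes under TGF-β.

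Counts over all genes moved as well. They were 1194 after TGF-β in control cells, 2021 without a filter, 470 in the 4 libraries alone and 145 to 1484 with 1 library left out. In the libraries labelled KO they were 889, with 1832 without a filter and 136 to 1381. Between untreated genotypes they were 238, with 428 by DESeq2, 137 by limma-voom, 756 without a filter, 150 with the block, 804 in the 4 libraries alone and 42 to 390. Under TGF-β they were 1959, with 410 in the 4 libraries alone and 477 to 2762. For the difference of responses they were 0, with 25 by DESeq2, 211 without a filter and 0 to 6. Of the pathway genes named, 8 of 16 in each TGF-β comparison kept their call under all alternatives run. With 2 libraries a group, changes below the fold threshold stay within wide intervals. Each member had at least 201 counts in every library, but every treated library was deeper than every untreated one.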
